A study of Mus musculus with 18 samples.

Results

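The suppressors of cytokine signalling (SOCS) are a family of 8 proteins, SOCS1 to SOCS7 and CIS, the product of Cish. Each carries an SH2 domain, which binds phosphorylated tyrosine, and a SOCS box, which recruits elongins and Cullin 5 so that the bound protein can be ubiquitinated. Several members are switched on by STAT transcription factors and then restrain the cytokine receptors and JAK kinases that activated those factors, which makes them feedback brakes. In macrophages SOCS1 is best known as a brake on interferon signalling and SOCS3 as a brake on the interleukin-6 and G-CSF receptors, and both genes respond to bacterial products. The 8 genes were taken by name from the 56748 genes of a mouse RNA sequencing series and all 8 passed the filter on low counts. The group was chosen by the MDP values of Socs1 and Socs3, which had been seen to differ from water in opposite directions in the 2 genotypes. All MDP against water values are therefore given as a description, with no test.

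The cells were bone marrow-derived macrophages, grown from the marrow of C57BL/6J mice in medium with supernatant of L929 cells, a fibroblast line whose supernatant supplies the growth factor M-CSF. They came from wild-type or TLR4-knockout mice, TLR4 being the receptor for bacterial lipopolysaccharide. On day 7 they received one of 3 treatments for 24 h in serum-free IMDM. The control groups received water. The GM groups received GlcNAc-MurNAc, the sugar pair that repeats along the bacterial cell wall. The MDP groups received muramyl dipeptide, which the labels spell MurNAc-D-Ala-L-Gln. The form detected by the sensor NOD2 is written MurNAc-L-Ala-D-isoGln. Which of them was added is not settled by the sources used here. Doses are not given in the sources used here, so whether GM and MDP were matched is unknown, and the part of Tlr4 that the knockout lacks is not stated. Each of the 6 groups has 3 libraries, labelled as biological replicates, and no label ties them to separate mice or cultures. The p-values below reflect the variation among these libraries, and part of it may be technical.

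Total counts ran from 15532973 to 21128507 per library, and the members held between 151 and 2952 reads in a library. Tlr4 lay at 149 to 230 CPM, the count scaled to the size of its library, in wild-type water libraries and at 46.3 to 52.9 CPM in knockout water libraries, a log2 fold change of -1.82 ± 0.12 (SE; adjusted p = 5.89e-08). Macrophage markers were high in every library, the 12 genes of the list summing to 25010 to 33380 CPM. Wild-type water replicate 3 stood apart on the second principal component, at -43.5 against -5.5 and -5.8 for the other water libraries. Replicates also varied more in 2 groups, with a biological coefficient of variation of 35.5% in wild-type water and 27.6% in wild-type GM against 5.70% to 8.11% in the other groups.

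Socs1 was lower with MDP in wild-type macrophages and higher with MDP in knockout macrophages. Socs3 had the same pattern with larger differences. Cish was also much lower with MDP in wild type, while in knockout its water and MDP ranges overlapped. Socs6 was lower with MDP in knockout, and its ranges overlapped in wild type. The remaining 4 members had log2 fold changes between -0.31 and 0.45.

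Socs1 (chromosome 16, 10600104 to 10603400, minus strand, GRCm39) encodes the member that blocks JAK kinases directly and is induced by interferons. In wild type, its 3 water libraries held 34.6, 32.3 and 39.0 CPM and its 3 MDP libraries 12.7, 13.8 and 12.3 CPM. In knockout, the water libraries held 9.73, 11.3 and 9.56 CPM and the MDP libraries 16.1, 17.7 and 19.5 CPM. Groups did not overlap in either genotype, so every MDP library was below water in wild type and above water in knockout. The log2 fold change was -1.45 ± 0.14 (SE), or 2.73-fold lower, in wild type and 0.80 ± 0.15, or 1.74-fold higher, in knockout. Without wild-type water replicate 3 the former was -1.34.

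Socs3 (chromosome 11, 117856905 to 117860873, minus strand, GRCm39) encodes the other member with a kinase inhibitory region, and its protein docks on the receptor chain encoded by Il6st. In wild type, water libraries held 71.6, 62.4 and 77.0 CPM and MDP libraries 11.7, 11.0 and 10.9 CPM. In knockout, water libraries held 70.6, 71.5 and 82.6 CPM and MDP libraries 133, 150 and 140 CPM. The water levels of the genotypes overlapped, while the MDP levels were the lowest and the highest of all 6 groups. MDP went with a log2 fold change of -2.65 ± 0.10, or 6.26-fold lower, in wild type and 0.91 ± 0.10, or 1.88-fold higher, in knockout. The wild-type minus knockout difference of these MDP responses was -3.56 ± 0.14 for Socs3 and -2.25 ± 0.20 for Socs1. Under MDP alone, the knockout exceeded the wild type by 12.5-fold for Socs3 and by 1.38-fold for Socs1.

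Cish (chromosome 9, 107173225 to 107179983, plus strand, GRCm39) is a textbook STAT5 target whose protein competes for docking sites on activated receptors. In wild type, water libraries held 120, 111 and 49.0 CPM and MDP libraries 9.03, 9.90 and 9.77 CPM. In knockout, water libraries held 20.3, 20.6 and 21.7 CPM and MDP libraries 21.1, 23.1 and 24.1 CPM. All wild-type MDP libraries lay below every other library for this gene, and in knockout the water and MDP ranges overlapped. The log2 fold change with MDP was -3.29 ± 0.33 in wild type, or 9.75-fold lower, and 0.12 ± 0.33 in knockout. Cish thus shared the wild-type direction of Socs1 and Socs3. In knockout their groups did not overlap while those of Cish did, and its 95% interval ran from -0.58 to 0.82. That interval rests on a spread shared by all 6 groups, not on the knockout libraries alone. The coefficient of variation of Cish in CPM was 41.4% in wild-type water, 3.60% in knockout water and 6.61% in knockout MDP. The difference of the responses was -3.41 ± 0.47, and -3.68 without wild-type water replicate 3. Stromal markers summed to 133 to 538 CPM in wild-type water and to 168 to 192 CPM in wild-type MDP libraries. The part of these markers in the Cish values was not tested.

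Because these members moved with MDP in wild type, sequence around their annotated start is shown where it was at hand: the bases before it for Socs1 and Socs3, and a site at its first bases for Cish. RefSeq promoter windows (GRCm38.p6) were matched for 4 of the 8 members, Socs1, Socs3, Socs4 and Cish. They reach from 250 bases before to 50 bases after the annotated start. The motifs searched on both strands were TTCNNNGAA, the palindrome that STAT3 and STAT5 bind, a longer form with 4 free bases between TTC and GAA, and the interferon-stimulated element, TTTC followed by 2 free bases and TTTC. The Socs1 sequence is chr16:10785537-10785786 on the minus strand, with its pair of overlapping matches to the interferon element in capitals. The Socs3 sequence is chr11:117969367-117969616 on the minus strand, with its single match to the STAT palindrome in capitals. The Cish site is chr9:107296659-107296678 on the plus strand, with its 2 STAT palindromes in capitals. All are written 5′ to 3′ along the gene.
Socs1: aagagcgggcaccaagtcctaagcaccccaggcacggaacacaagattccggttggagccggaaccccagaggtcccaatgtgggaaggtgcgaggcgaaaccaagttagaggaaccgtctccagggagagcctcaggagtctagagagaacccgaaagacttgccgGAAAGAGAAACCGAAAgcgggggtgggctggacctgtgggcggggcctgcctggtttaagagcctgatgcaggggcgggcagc
Socs3: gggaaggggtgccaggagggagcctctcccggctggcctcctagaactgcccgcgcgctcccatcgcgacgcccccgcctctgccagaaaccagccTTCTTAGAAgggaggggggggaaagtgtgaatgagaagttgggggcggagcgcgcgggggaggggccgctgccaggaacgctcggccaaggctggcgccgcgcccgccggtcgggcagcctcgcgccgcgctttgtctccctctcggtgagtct
Cish: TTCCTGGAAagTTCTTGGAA

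The Socs1 matches read GAAAGAGAAA and GAAACCGAAA on the gene's strand and lie 83 to 74 and 77 to 68 bases before the start. Among 32851 promoter windows of the same length, 3.44% hold the interferon element and 0.225% hold it 2 or more times. The Socs3 palindrome TTCTTAGAA lies 154 to 146 bases before the start. The Cish palindromes TTCCTGGAA and TTCTTGGAA take bases 1 to 9 and 12 to 20 from the annotated start. The palindrome is found in 8.30% of all windows, and 0.457% hold it 2 or more times. The longer form, found in 6.95% of windows, has no match in any of the 4 members, and Socs4 matches none of the motifs. These are matches of letters only.

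**Figure D1:**
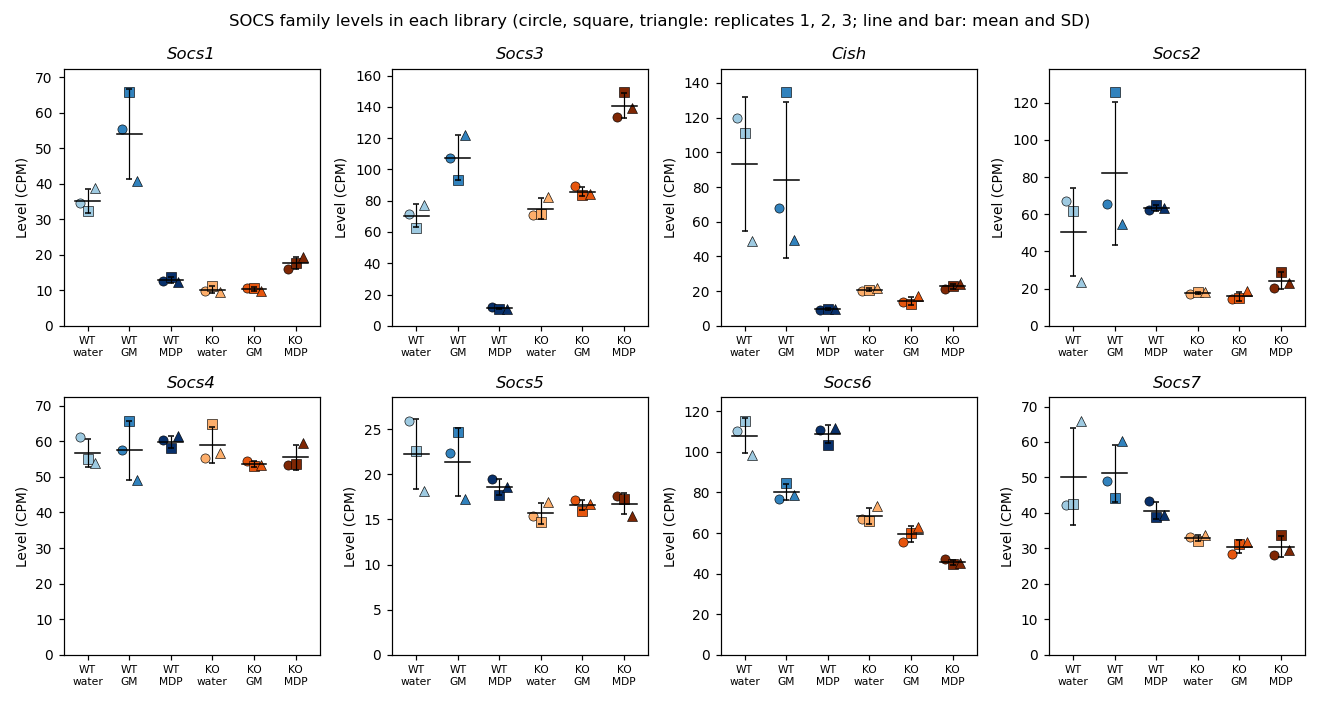
Level of each of the 8 members (CPM, linear axis from 0) in the 18 libraries, by genotype and treatment, with WT for wild type and KO for TLR4 knockout; symbols are replicates 1 to 3, and line and bar are the mean and SD of a group. Socs3 lies at 62.4 to 77.0 CPM with water and at 10.9 to 11.7 CPM with MDP in wild type, and at 133 to 150 CPM with MDP in knockout.

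Socs2 encodes a regulator of growth hormone signalling, and like Cish it is a STAT5 target. Its wild-type libraries held 67.0, 61.6 and 23.5 CPM with water and 62.1, 65.1 and 63.2 CPM with MDP. Knockout libraries held 17.3, 17.96 and 17.95 CPM with water and 20.5, 29.2 and 23.1 CPM with MDP. Ranges overlapped in wild type and not in knockout, where the log2 fold change was 0.45 ± 0.33, or 0.30 without knockout MDP replicate 2. This SE too rests on the spread shared by all 6 groups. The coefficient of variation of Socs2 was 46.7% in wild-type water, 2.23% in knockout water and 18.35% in knockout MDP. Socs2 therefore did not share the wild-type MDP pattern of Cish, with a log2 fold change of 0.32 ± 0.32.

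Socs6 (chromosome 18, 88683348 to 88945605, minus strand, GRCm39) encodes a member that acts on receptor tyrosine kinases such as KIT. In wild type, water libraries held 110, 115 and 98.3 CPM and MDP libraries 111, 104 and 112 CPM. In knockout, water libraries held 66.8, 65.9 and 73.2 CPM and MDP libraries 47.1, 44.5 and 45.2 CPM. The wild-type ranges overlapped and the knockout ranges did not. The log2 fold change with MDP was 0.01 ± 0.07 in wild type and -0.59 ± 0.08 in knockout, opposite in sign to Socs1 and Socs3 in knockout. Socs4 and Socs5, whose proteins are linked to the EGF receptor, and Socs7, an adaptor-binding member, had log2 fold changes between -0.31 and 0.10 with MDP in the 2 genotypes.

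Read over the family, 3 members were below water in every MDP library of the wild type and 5 overlapped, where 37.2% of the 15450 genes tested did not overlap in either direction. In knockout 3 members were above, 1 was below and 4 overlapped, against 32.8% of genes. Because the choice of members used these contrasts, nothing is read from these counts. The median log2 fold change of the members was -0.28 in wild type and 0.11 in knockout, against -0.04 and -0.01 over all genes. A list of 10 cell division genes, added after earlier results of these data were known, also differed from water in opposite directions without overlap. Its summed level was 84.3 to 297 CPM with water and 322 to 382 CPM with MDP in wild type, and 714 to 755 CPM with water and 440 to 471 CPM with MDP in knockout. Its direction was the reverse of that of Socs1 and Socs3 in each genotype, and its part in their values was not tested.

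**Figure D2:**
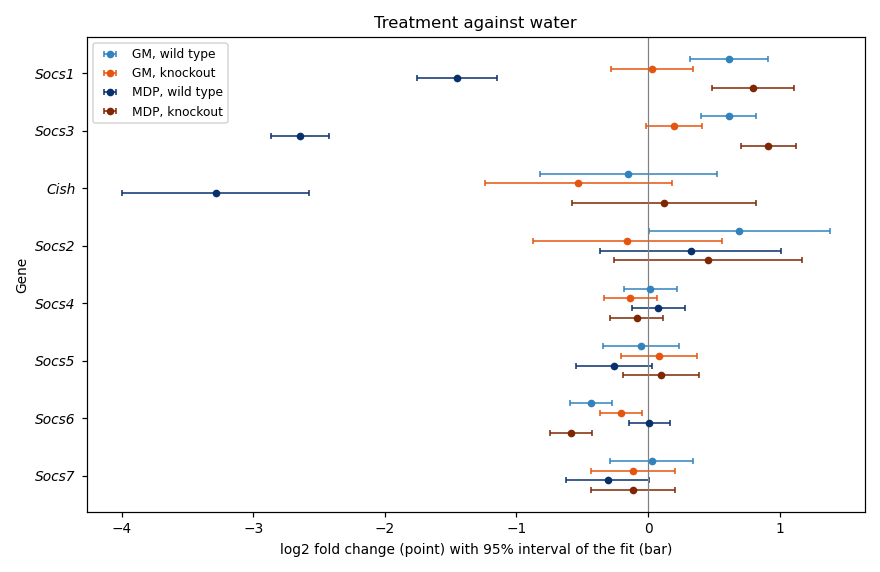
Log2 fold change against water of each member for GM and MDP in wild type and knockout; points are fitted values and bars 95% intervals. MDP values are a description with no test: Socs1, Socs3 and Cish lie left of 0 in wild type, and Socs1 and Socs3 lie right of 0 in knockout.

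GM asks how the same genes respond to a second cell-wall fragment. It shares its water libraries with the MDP contrast that chose Socs1 and Socs3, so the values of the treatments are set side by side and not correlated. The GM p-values of Socs1 and Socs3 in either genotype, and for the difference of responses, therefore use water libraries that entered that choice. They are not independent of it. In wild type, Socs1 and Socs3 rose about 1.53-fold with GM, where they had been lower with MDP, and Socs6 fell. In total 2 members rose, 1 fell and 5 did not pass, where 4.72% of all genes passed.

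Wild-type GM libraries held 55.4, 65.9 and 40.7 CPM of Socs1, all above the 32.3 to 39.0 CPM of the water libraries. The log2 fold change was 0.61 ± 0.14 (adjusted p = 0.0153). For Socs3 the GM libraries held 107, 93.3 and 122 CPM, all above the 62.4 to 77.0 CPM with water, with a log2 fold change of 0.61 ± 0.10 (adjusted p = 0.000987). Both genes thus rose without overlap of the groups, where 12% of all genes did not overlap. Socs6 held 77.0, 84.6 and 78.6 CPM with GM, below the 98.3 to 115 CPM of water, and fell by 0.43 on the log2 scale (SE 0.07, adjusted p = 0.00179). These calls rest on a spread shared by all 6 groups. With only the compared libraries, or with a weight per group in limma-voom, 0 members passed, with adjusted p of 0.504 and 0.225 for Socs1, 0.237 and 0.0873 for Socs3, and 0.302 and 0.224 for Socs6. Socs1 alone also failed without wild-type water replicate 1 or 2 or GM replicate 1 or 2, with adjusted p from 0.0543 to 0.0791.

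Cish and Socs2 varied widely among wild-type replicates with water and GM. Cish held 67.7, 135 and 49.5 CPM with GM, and its log2 fold change of -0.15 ± 0.32 did not pass (adjusted p = 0.891). Socs2 held 65.6, 126 and 54.6 CPM with GM, and its log2 fold change of 0.69 ± 0.32 did not pass either (adjusted p = 0.310). Both genes were lowest in water replicate 3 among the water libraries and highest in GM replicate 2 among the GM libraries. The cell division genes summed to 297, 254 and 84.3 CPM in the water libraries and to 134, 242 and 96.8 CPM in the GM libraries, in replicate order. Stromal markers summed to 538, 492 and 133 CPM with water and to 160, 208 and 166 CPM with GM. The part of either list in the levels of Cish and Socs2 was not tested. Socs4, Socs5 and Socs7 had log2 fold changes from -0.05 to 0.03 with GM in wild type.

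In knockout, 0 of the 8 members passed with GM in edgeR, where 0.0194% of all genes did. Socs6 alone among them had an unadjusted p below 0.05, as did 749 of the 15450 genes tested, and DESeq2 also called 0. Socs1 held 10.6, 10.8 and 9.86 CPM with GM, overlapping water, with a log2 fold change of 0.03 ± 0.15 and a 95% interval from -0.28 to 0.34. Socs3 held 89.3, 83.9 and 84.2 CPM, all above the 70.6 to 82.6 CPM with water, with a log2 fold change of 0.20 ± 0.10 (adjusted p = 1). Socs6 held 55.6, 60.1 and 63.0 CPM, below water, with a log2 fold change of -0.20 ± 0.07 (adjusted p = 0.830). Cish held 13.5, 12.7 and 17.2 CPM, below water, with a log2 fold change of -0.53 ± 0.33 (adjusted p = 1). Socs4 at 53.2 to 54.5 CPM and Socs7 at 28.5 to 31.7 CPM also lay below every water library, with log2 fold changes of -0.14 and -0.11. In total 1 member lay above water and 4 lay below it without overlap. The share of all genes without overlap is not given for this comparison. Fitted on the knockout water and GM libraries alone, 3 passed, with adjusted p of 0.0138 for Socs3, 0.0238 for Socs6 and 0.000840 for Cish. The share of all genes passing in that fit is not given here either.

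Whether the GM response differed between the genotypes was tested directly, and 0 of 8 members passed in edgeR, against 1.86% of all genes. Socs1, Socs3 and Socs6 had an unadjusted p below 0.05, as did 1597 of the 15450 genes tested, and DESeq2 called 0. The wild-type minus knockout difference was 0.58 ± 0.20 for Socs1 (adjusted p = 0.249), 0.42 ± 0.14 for Socs3 (adjusted p = 0.222) and -0.23 ± 0.11 for Socs6 (adjusted p = 0.472). Socs3 passed without wild-type water replicate 3 (adjusted p = 0.0338) and Socs1 without wild-type GM replicate 3 (adjusted p = 0.0183).

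Set against MDP, GM gave 4.18-fold more Socs1 and 9.57-fold more Socs3 in wild type, a description only, and 1.70-fold and 1.64-fold less in knockout. The other 6 members could be tested. In wild type, Cish was 8.79-fold higher with GM than with MDP (log2 fold change 3.14 ± 0.33, adjusted p = 4.03e-05) and Socs6 was lower (-0.44 ± 0.07, adjusted p = 0.000912). Those 2 of 6 stand against 19.4% of all genes. For the other 4 members the 95% intervals of the log2 difference lay between -0.31 and 1.06. In knockout, Socs6 was higher with GM than with MDP (0.39 ± 0.08, adjusted p = 0.0157), 1 of 6 members against 1.57% of genes. That call was lost without a filter on low counts (adjusted p = 0.0526) and without knockout GM replicate 2 or 3 or knockout MDP replicate 2 or 3 (adjusted p from 0.0732 to 0.109). In knockout Cish (-0.65 ± 0.33, adjusted p = 0.509) and Socs2 (-0.61 ± 0.33, adjusted p = 0.556) did not pass. Fitted on the knockout GM and MDP libraries alone both passed, with adjusted p of 1.46e-05 for Cish and 0.00193 for Socs2. The share of all genes passing in that fit is not given here.

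The genotype comparison asks what loss of TLR4 does to the family in unstimulated and GM-treated cells. With water, 5 of the 6 members other than Socs1 and Socs3 were lower in knockout and none was higher, where 33.1% of all genes passed and 18.5% passed as lower. With GM, 7 of the 8 were lower, where 37.4% passed and 20.5% passed as lower. The median log2 fold change of the members was -0.63 with water and -0.58 with GM, against -0.03 over all genes in both. The water levels of Socs1 and Socs3 entered the choice of members and are given with no test, while the GM libraries were not used in that choice.

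Among those tested, Cish differed most with water, its knockout libraries lying 4.47-fold below the wild type (log2 fold change -2.16 ± 0.32, adjusted p = 0.000205). Socs2 was 2.86-fold lower (-1.52 ± 0.33, adjusted p = 0.00313). Socs6 (-0.65 ± 0.07, adjusted p = 1.03e-05), Socs7 (-0.60 ± 0.15, adjusted p = 0.00609) and Socs5 (-0.50 ± 0.14, adjusted p = 0.00988) were lower by smaller amounts. None of these 5 genes had overlapping groups, and 44.4% of all genes had none. As a description, Socs1 was 3.45-fold lower (-1.79 ± 0.14), without overlap, and Socs3 differed by 0.09 ± 0.10, with a 95% interval from -0.12 to 0.30. Socs4 (0.05 ± 0.10, adjusted p = 0.697) did not pass, with a 95% interval from -0.15 to 0.26. All 5 calls held without wild-type water replicate 3. Those of Socs5 and Socs7 failed in a fit of the water libraries alone (adjusted p = 0.0812 and 0.0792), and Socs5 failed without wild-type water replicate 1 (adjusted p = 0.0580).

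With GM the largest differences were again in Cish (5.81-fold lower, -2.54 ± 0.33, adjusted p = 5.24e-05), Socs1 (5.18-fold lower, -2.37 ± 0.14, adjusted p = 2.72e-08) and Socs2 (5.16-fold lower, -2.37 ± 0.33, adjusted p = 0.000102). Every knockout library of these genes was below every wild-type library. Socs7 (-0.74 ± 0.15, adjusted p = 0.00130) and Socs6 (-0.43 ± 0.07, adjusted p = 0.000440) were lower as well. Socs3 (-0.33 ± 0.10, adjusted p = 0.0170) and Socs5 (-0.37 ± 0.14, adjusted p = 0.0425) passed narrowly. Socs3 failed in the GM libraries alone (adjusted p = 0.0679) and without wild-type GM replicate 3 or knockout GM replicate 2 or 3 (0.0557 to 0.0881), and Socs5 failed under 8 of 12 alternatives (the highest adjusted p was 0.172). Socs4 did not pass (-0.10 ± 0.10, adjusted p = 0.430). Under MDP, a description, Socs3, Cish and Socs1 were higher in knockout by 3.65, 1.25 and 0.46 on the log2 scale, the reverse of GM for all 3. Socs2, Socs6 and Socs7 stayed lower there, by log2 fold changes of -1.39, -1.25 and -0.41.

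Other markers differed between the genotypes too. The 14 stromal markers summed to 133 to 538 CPM in wild-type water libraries and to 58.4 to 78.9 CPM in knockout. Of them Lum and Cxcl12 had no count in 4 of the 18 libraries each. The 10 dendritic cell markers summed to 1228 to 1660 against 714 to 740 CPM, and the defining markers Xcr1 and Siglech had no count in 9 and 14 libraries. The 8 osteoclast markers summed to 1333 to 1807 against 945 to 963 CPM, and the 10 cell division genes to 84.3 to 297 against 714 to 755 CPM. The 12 neutrophil markers were higher in knockout, at 1579 to 2389 against 2407 to 2426 CPM. Ranges overlapped for the 12 macrophage markers, at 26550 to 29720 against 28480 to 30510 CPM. They also overlapped for the 10 T, B and NK cell markers, at 6.91 to 12.9 against 6.61 to 7.63 CPM. Calcr of the osteoclast list had no count in 14 libraries, while Atp6v0d2 alone ranged from 375 to 1607 CPM over the 18 libraries. Itgax of the dendritic cell list ranged from 444 to 1411 CPM, Fn1 of the stromal list from 31.2 to 164 CPM and Mmp8 of the neutrophil list from 1230 to 2517 CPM. A few genes can thus carry a sum. With GM the stromal markers summed to 160 to 208 CPM in wild type and 61.0 to 82.2 CPM in knockout, and the dendritic cell markers to 1483 to 2058 and 664 to 807 CPM. The osteoclast markers summed to 1284 to 1609 and 835 to 899 CPM, and the cell division genes to 96.8 to 242 and 554 to 592 CPM. Macrophage markers were higher in knockout with GM, at 25010 to 25530 and 29510 to 33380 CPM. The neutrophil markers overlapped there, at 1254 to 2575 and 2459 to 2573 CPM, as did the T, B and NK cell markers, at 5.59 to 7.30 and 6.04 to 6.84 CPM. The part of these differences in the lower SOCS levels of the knockout was not tested. In these bulk samples, fewer cells of a type and less RNA per cell cannot be told apart.

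**Figure D3:**
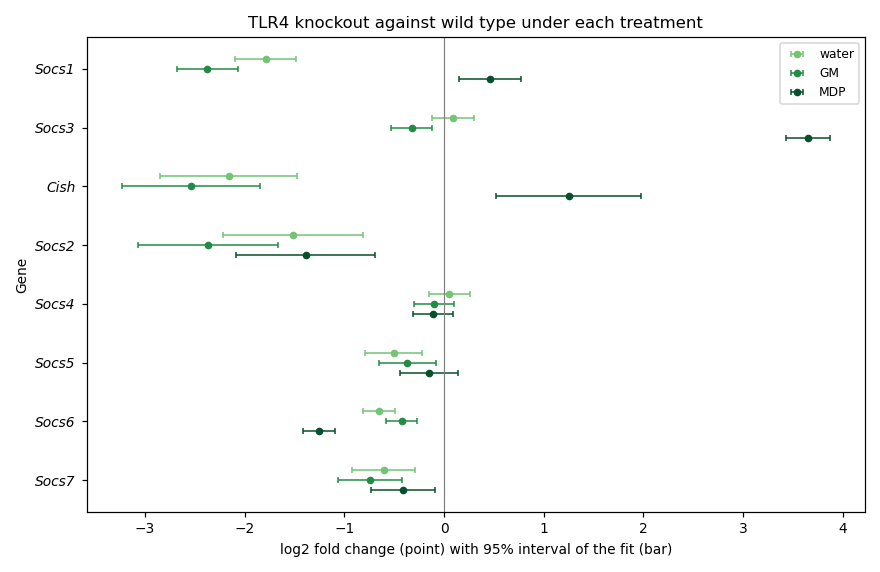
Log2 fold change of the TLR4 knockout against wild type for each member under water, GM and MDP, with points for fitted values and bars for 95% intervals; the MDP values are a description with no test. Cish and Socs1 lie left of 0 with water and GM and right of 0 with MDP, and Socs4 lies near 0 throughout.

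Levels of different members were compared per gene length, as deposited FPKM. Socs3 was the most abundant member in 5 of the 6 groups, without overlap with the next gene. It held 24.2 FPKM in wild-type water, 36.6 with GM, 25.8 in knockout water, 29.6 with GM and 48.5 with MDP. In wild-type MDP it was sixth, at 3.86 FPKM, and Socs6 led with 9.52 FPKM, followed by Socs4 at 8.66, Socs2 at 6.62, Socs7 at 5.46 and Socs1 at 4.41 FPKM. No neighbours in that group overlapped. Cish was last there at 1.48 FPKM, whereas in wild-type water it was second at 14.5 FPKM and overlapped Socs1 at 12.1 FPKM. In knockout Socs2 was last in all 3 groups, at 1.85 FPKM with water, 1.66 with GM and 2.54 with MDP, where it overlapped Socs5. Socs4 stood second in every knockout group, at 7.77 to 8.53 FPKM.

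The spread over conditions differed among the members and is given as a description. For Socs3 the highest and lowest groups were knockout MDP and wild-type MDP, the values that chose it. For Socs1 the lowest group was knockout water, which also entered that choice. The highest group mean in CPM exceeded the lowest 12.5-fold for Socs3, 9.76-fold for Cish, 5.30-fold for Socs1 and 5.16-fold for Socs2. It was 2.38-fold for Socs6, 1.68-fold for Socs7, 1.42-fold for Socs5 and 1.12-fold for Socs4.

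**Figure D4:**
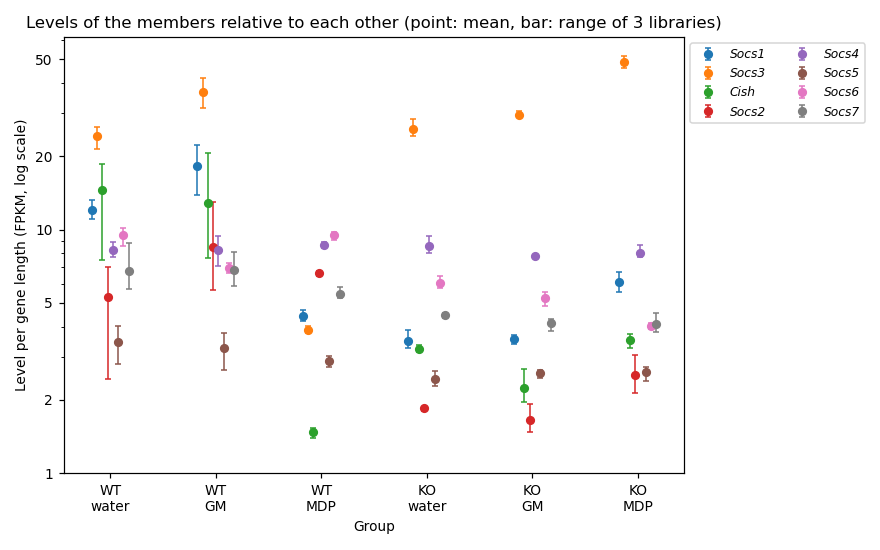
FPKM of each member (log axis), with points for the mean and bars for the range of the 3 libraries of each group, WT for wild type and KO for TLR4 knockout. Socs3 is the top point in 5 groups and drops to 3.86 FPKM in wild-type MDP, where Cish is at 1.48 FPKM.

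Correlations over the 18 libraries, which share the 6 groups, include the MDP and water values by which Socs1 and Socs3 were chosen. They are therefore a description, with no test. Socs1 and Socs3 had a Pearson r of 0.29 and a Spearman rho of 0.32 in log2 CPM. Socs1 was closer to Cish (r = 0.86, rho = 0.73), and Socs3 ran against Socs6 (r = -0.68, rho = -0.75). The genes most like Socs1 were Ptch1 (r = 0.96), Pim1 (r = 0.96), a kinase gene that STAT factors induce, and Pgs1 (r = 0.95). Those most like Socs3 were Rbfox2 (r = 0.98), Dst (r = 0.97) and Tmed8 (r = 0.95). Those most like Cish were Pdgfrb (r = 0.95), a stromal marker, Pfkp (r = 0.95) and Gm34907 (r = 0.94). Those most like Socs5 were P4ha3 (r = 0.93), Tmem45a (r = 0.92) and Col3a1 (r = 0.92), another stromal marker. The gene most like Socs2 was Mex3b (r = 0.97), Socs4 Hnrnph1 (r = 0.78), Socs6 Pdxk (r = 0.98) and Socs7 Txnl4a (r = 0.98). With water, stromal sums and Cish were both higher in wild type. With MDP, stromal sums were 168 to 192 CPM in wild type and 78.7 to 132 CPM in knockout, where Cish averaged 9.56 and 22.7 CPM. The part of stromal cells in these likenesses was not tested.

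The other genes of the pathway were followed as lists. With GM in wild type, 9 of 12 JAK-STAT cytokine ligand genes rose and none fell, where 4.72% of all genes passed in either direction, with a median log2 fold change of 3.00 against -0.03 over all genes. The median was the same with the genes lacking any count in a group set at their bound. Il6, whose receptor SOCS3 restrains, went from 0.722 ± 0.198 to 102 ± 41.7 CPM (SD, n = 3; log2 fold change 7.13, adjusted p = 6.38e-09). Il12b rose from 3.19 to 405 CPM. Csf3, which encodes G-CSF, had no count in any wild-type water library and 3.05 CPM with GM, at least 18.3-fold higher against a floor of 3 counts per library. As a description, Il6 was higher with MDP than with water in both genotypes, at 5.14 against 0.722 CPM in wild type and 25.9 against 3.35 CPM in knockout. Socs3 was lower with MDP in wild type, at 11.2 against 70.3 CPM, and higher in knockout, at 141 against 74.9 CPM.

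Among the genes for STAT factors, Stat4, Stat5a and Stat3 rose with GM in wild type, with log2 fold changes of 2.57, 0.64 and 0.40. Stat2 at 0.76 (adjusted p = 0.0634), Stat5b at 0.15 and Stat6 at 0.08 did not pass. Of the 4 JAK genes 0 passed in edgeR and 1 had an unadjusted p below 0.05, where 2452 of the 15450 genes tested did. Their log2 fold changes were 0.89 for Jak2 (adjusted p = 0.0739), 0.54 for Jak3, 0.14 for Tyk2 and 0.06 for Jak1. Of 24 cytokine receptor genes 1 rose, Il15ra by 1.56, 1 fell, Il6ra at -0.46, and 22 did not pass. Over all genes 4.72% passed in this comparison, the background for the STAT, JAK and receptor genes alike.

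STAT3 targets rose in 4 of 10, against the same 4.72% of all genes (median 0.62), including Hp at 1.35, Etv3 at 0.65 and Junb at 0.61. Of the 10 STAT5 targets 0 passed in edgeR and 2 had an unadjusted p below 0.05 (median 0.07), against the same 2452 of 15450 genes. Of 13 other brakes on the pathway 2 rose, Usp18 at 1.52, which restrains the interferon receptor, and Cblb at 0.61. Of 17 other genes with a SOCS box 1 rose, Spsb1 at 1.05, and of 7 partners of the ligase 0 passed in edgeR, with 0 at an unadjusted p below 0.05. Of 10 genes for other proteins that SOCS members bind 0 passed, with 1 at an unadjusted p below 0.05. In knockout 0 of the 113 genes of these 10 lists passed with GM in edgeR, and 15 had an unadjusted p below 0.05, against 749 of all 15450 genes.

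In knockout against wild type with GM, 10 of 12 ligand genes were lower and 1 was higher (median -2.07), where 20.5% of all genes were lower. STAT5 targets were lower in 7 of 10 cases and higher in 2 (median -1.03). Genes for other proteins that SOCS members bind were lower in 5 of 10 and higher in 1 (median -1.06). Receptor genes were lower in 12 of 24 and higher in 5 (median -0.34). Lower genes numbered 4 of 10 STAT3 targets, 6 of 13 other brakes, 4 of 17 other SOCS-box genes and 0 of 7 ligase partners. Among the STAT genes, Stat4 (-1.92), Stat5a (-0.80), Stat2 (-0.74) and Stat3 (-0.55) were lower. Jak2 at -0.79 and Jak1 at -0.48 were lower as well. With water, STAT5 targets were lower in 6 of 10 and higher in 2 (median -0.98), where 18.5% of all genes were lower. Genes for the other bound proteins were lower in 4 of 10 and higher in 1 (median -0.40). Receptor genes were lower in 8 of 24 and higher in 6 (median -0.09). Stat5a averaged 53.0 CPM in wild-type and 49.6 CPM in knockout water libraries. Whether STAT5 had a part in the lower Cish and Socs2 was not tested. These lists were drawn up with earlier results of the data known and are given as counts.

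**Figure D5:**
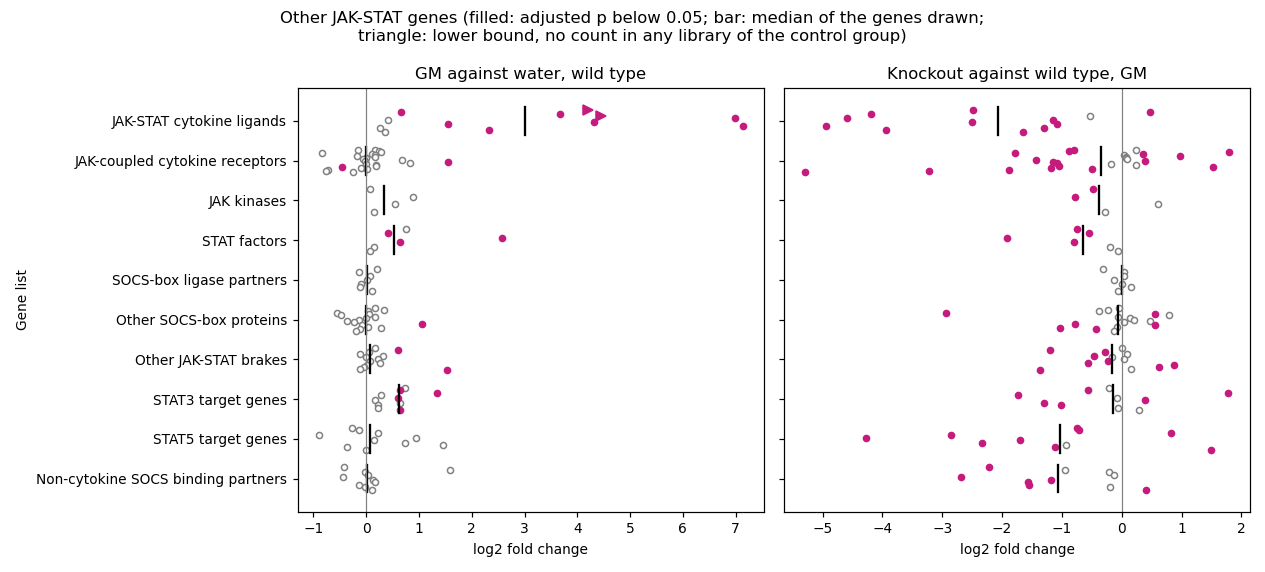
Log2 fold change of each other JAK-STAT gene by list, for GM against water in wild type (left) and for knockout against wild type with GM (right); filled points have an adjusted p below 0.05, bars are medians of the genes drawn, and triangles are lower bounds for Csf3 and Il12a, which had no count with water. Cytokine ligands reach log2 values of 7.13 on the left, and most lie below 0 on the right.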

How the data were processed

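Per the submitters' processing notes, HISAT2 2.0.5 was the aligner, featureCounts 1.5.0-p3 the read counter and GRCm39 the mouse build. Settings, use of strand and annotation release are not given in the sources used here. The deposited table holds the authors' raw read counts, and a second holds FPKM computed by the authors, used only to compare genes. Counts were analysed with edgeR 4.0.16 in R 4.3.3: filterByExpr (minimum count 10; 15450 genes kept), TMM factors of 0.877 to 1.06, and the robust quasi-likelihood test over the 18 libraries, fitting a mean for each of the 6 groups and leaving 12 residual degrees of freedom. P-values were Benjamini-Hochberg adjusted over all genes, threshold 0.05. Each ± after a log2 fold change is its SE. The procedure was tested on simulated data. DESeq2 1.42.0 and limma 3.58.1 gave alternatives. Named were all 8 members, JAK and STAT genes, up to 3 genes per list by smallest adjusted p with GM in wild type, and the 3 genes most alike by Pearson r of log2 CPM (prior count 2). Genes named beyond this were chosen after their values were seen. Members and lists were chosen with earlier results of these data known. Results on one gene and one list are not reported here.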

Additional observations from a re-analysis of the deposited data

How the results depend on the processing

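The number of members passing in the 7 tested comparisons was recomputed under other settings. For GM in wild type 0 passed with only the compared libraries and 0 with limma-voom weights per group, and 2 to 3 when 1 library was left out, against 3. For GM in knockout, against 0, those settings gave 3 and 1, and leaving out 1 library gave 0. For the difference of GM responses, leaving out 1 library gave 0 to 1. For GM against MDP in knockout, against 1, no filter on low counts gave 0, only the compared libraries gave 3, and leaving out 1 library gave 0 to 1. Knockout against wild type gave 5 to 7 members with GM, and GM against MDP in wild type gave 2 throughout. With water, Cish, Socs2 and Socs6 passed under every setting, while Socs5 failed under 2 of 12 alternatives and Socs7 under 1. Socs1 and Socs3 are left out there, as their water levels entered the choice of members. The cause of these changes was not tested. The share of all genes passing under each other setting is not given here, so these counts have no background beside them.

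Of single members' tested values, 634 kept their side of the threshold (28 of them, none passing under either setting, changed sign), 30 no longer passed and 8 newly passed. Socs1 and Socs3 with water between the genotypes are among these values, though given above with no test. Of untested MDP values, 441 moved by less than the replicate spread (7 of them across 0) and 6 by more. One changed sign by more than that spread: the Socs7 difference of MDP responses, -0.19, was 0.087 without wild-type water replicate 3 and ran from -0.30 to 0.087 over the libraries left out. Deviations of same-numbered libraries correlated between -0.202 and 0.538, above 0.1 in 2 of 45 pairs. Those 2 were wild-type water against wild-type GM, at 0.519 for replicate 2 and 0.538 for replicate 3, with -0.202 for replicate 1. Whether replicate numbers pair these 2 groups is not settled by such values. Between all other groups no correlation exceeded 0.1. With the replicate block, the number of members passing did not change in any of the 7 comparisons.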
